A study of Mus musculus with 42 samples.

Results

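The genes for the proteins of the cytosolic ribosome were examined in the liver of mice fed 2 diets. Members were the rows of the gene count table annotated as protein coding whose symbol was Rpl or Rps, a number and at most one of the letters a, x or l, together with Rplp0, Rplp1, Rplp2 and Rpsa. This rule gave 80 of the 54532 genes in the table, 49 of the large and 31 of the small ribosomal subunit. No measured value entered the rule. Ribosomal proteins that carry other names (such as Rps3a1, Fau and Rack1) were kept as a separate list.

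Female C57BL/6 mice, given as the substrain C57BL/6NHsd in the study's methods, received, from weaning and for 3 weeks, a diet in which soybean oil gave 16% of the energy (AIN93G) or 45% (a modified AIN93 formula, here HFD for high-fat diet). Livers were taken every 4 h over 24 h of Zeitgeber time (ZT), counted from lights on at ZT 0 with lights off at ZT 12, with 3 libraries for each diet and time, 42 in all. Collection ran for 48 h, and the libraries come from the first 24 h. Both groups had free access to food. Poly(A) RNA was sequenced as paired-end reads, and the replicate numbers used here only name libraries. The study's methods give 3 RNA extractions for each time and diet. The labels do not say whether each library came from 1 mouse, so p-values set differences against the spread between these libraries. Of the 30 libraries fitted below, 13 share the first number of their title with another of the same diet and a different time, and the labels do not say what this number marks.

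Libraries carried between 14592481 and 21368409 counts. The labels call every library liver, but 10 of the 42 held at most 81.0 CPM (counts scaled to a common library total) of Alb, the hepatocyte albumin gene, and these 10 were rich in adipocyte transcripts. The summed level of 5 adipocyte genes was 11192 CPM or more in the 10 libraries and 50.8 CPM or less in the other 32. Those 10 are the 6 AIN93G libraries of ZT 16 and ZT 20 and replicates 1 and 2 of ZT 24 on each diet. The other 32 libraries had at least 66434 CPM of Alb and are called liver libraries below. Of these, 30 formed 10 complete groups of 3 (AIN93G at ZT 0 to ZT 12 and HFD at ZT 0 to ZT 20), so diets were compared at ZT 0, 4, 8 and 12 only. At ZT 12, 4 libraries are labelled dark phase and 2 (AIN93G replicate 2 and HFD replicate 3) light phase.

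The cytosolic ribosome is built from a small subunit, which reads the messenger RNA, and a large subunit, which joins amino acids and releases the chain through an exit tunnel. Most of its proteins are made in equal numbers. Messenger RNAs of ribosomal proteins typically begin with a run of pyrimidines, the 5′ terminal oligopyrimidine tract. Through it, nutrient signalling by mTORC1 and the La-related protein LARP1 controls translation. In liver this control is known to follow feeding. It acts on translation, whereas the libraries measured RNA amount.

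Pyrimidine tracts of 6 members near annotated starts are shown because most members with a matched promoter held such a tract. They were taken from RefSeq promoter sequences of GRCm38.p6, are written 5′ to 3′ on the gene's strand, and have the tract in capitals.
Rpl7a, chr2:26910787-26910816, strand +: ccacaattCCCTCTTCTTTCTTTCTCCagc
Rpl27a, chr7:109519183-109519212, strand +: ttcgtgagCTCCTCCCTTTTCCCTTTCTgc
Rpl35, chr2:39005117-39005146, strand minus: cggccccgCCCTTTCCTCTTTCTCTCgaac
Rpl15, chr14:18270969-18270998, strand minus: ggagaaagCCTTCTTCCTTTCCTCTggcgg
Rps6, chr4:86857347-86857376, strand minus: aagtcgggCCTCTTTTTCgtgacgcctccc
Rps27l, chr9:66946056-66946085, strand +: cgcctccaCTCCTCTCCactcctccccgcc
A tract was counted where a C followed by 7 or more C or T bases, with at least 1 T, lay within 50 bases of the annotated start. Of the 80 members, 60 matched a RefSeq promoter, and 49 of these (81.7%) held such a tract, against 28.6% of 27025 genes with a promoter. On the opposite strand the shares were 20.0% of the members and 30.6% of the genes. The tract of Rpl7a was 19 bases long and began 12 bases before the annotated start, while that of Rps6 was 10 bases long and began at the base before it. A match says that these letters are present near an annotated start and not that a transcript begins there.

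Together the 80 members took between 0.745% and 1.55% of all counts in the 32 liver libraries, or 130508 to 274247 counts per library. Of the 80, 76 passed the filter of a mean count of 25 over the liver libraries and entered the tests, among 12000 genes. The 4 members below it were Rpl10l, which has 0 counts in every liver library, Rpl39l, with at most 1 count, Rpl24, with 4 to 29 counts, and Rpl3l, with 0 to 247 counts. Rpl10l and Rpl39l are copies known from the male germ line, and Rpl3l is a paralog of Rpl3 known from striated muscle.

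Levels between members were compared as CPM per kilobase of annotated gene length. The highest mean levels were those of Rplp1, a protein of the acidic stalk that recruits elongation factors, at 438 CPM per kilobase, Rps2, at the entry of the mRNA channel, at 346, and Rpl17, near the exit of the tunnel, at 268. The lowest levels of tested members were 0.819 CPM per kilobase for Rps10, 6.02 for Rpl13a and 11.4 for Rps15a. These ranks depend on the annotated length. Rplp1 had 219 CPM over 499 bases and Rps2 633 CPM over 1830. Rps15a had 71.7 CPM and a length of 6270 bases, with a coding length of 390, while Rpl39 had 28.4 CPM. For Rpl17 the count table gives 775 bases and GENCODE M21 gives 1327 exon bases, so its rank is uncertain. Rps10 had only 9 to 59 counts per liver library. In the GENCODE M21 annotation, 28.7% of the exon bases of Rps10, 35.4% of Rpl13a and 47.0% of Rpl24 lay within exons of other genes, and for Rpl35 and Rpl23a the shares were 66.2% and 62.3%. The strand setting of the counting was not given in the sources used here, so values of these members are uncertain. Rows annotated as ribosomal protein pseudogenes, 399 in all, were not counted as members, and reads shared with such copies may be missing from the members.

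On the HFD the group means of the members were lowest at ZT 8 for 54 of 76 members and highest at ZT 12 for all 76, while on AIN93G they were highest at ZT 8 for 62. As a share of all counts, the AIN93G means from ZT 0 to ZT 12 were 1.29% ± 0.0926 (SD, n = 3), 1.25% ± 0.123, 1.33% ± 0.178 and 1.22% ± 0.0625. The HFD shares were 1.09% ± 0.0721 (ZT 0), 1.14% ± 0.166 (ZT 4), 0.990% ± 0.215 (ZT 8), 1.39% ± 0.177 (ZT 12), 1.26% ± 0.110 (ZT 16) and 1.14% ± 0.113 (ZT 20). The median ratio of a member's highest to its lowest group mean was 1.57 over the 6 HFD times and 1.13 over the 4 AIN93G times. The number of times differs, so these ratios were not compared. The single liver libraries of ZT 24 held 1.31% on AIN93G and 1.30% on the HFD. In bulk tissue, fewer cells of a type and less RNA per cell cannot be told apart.

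**Figure D1:**
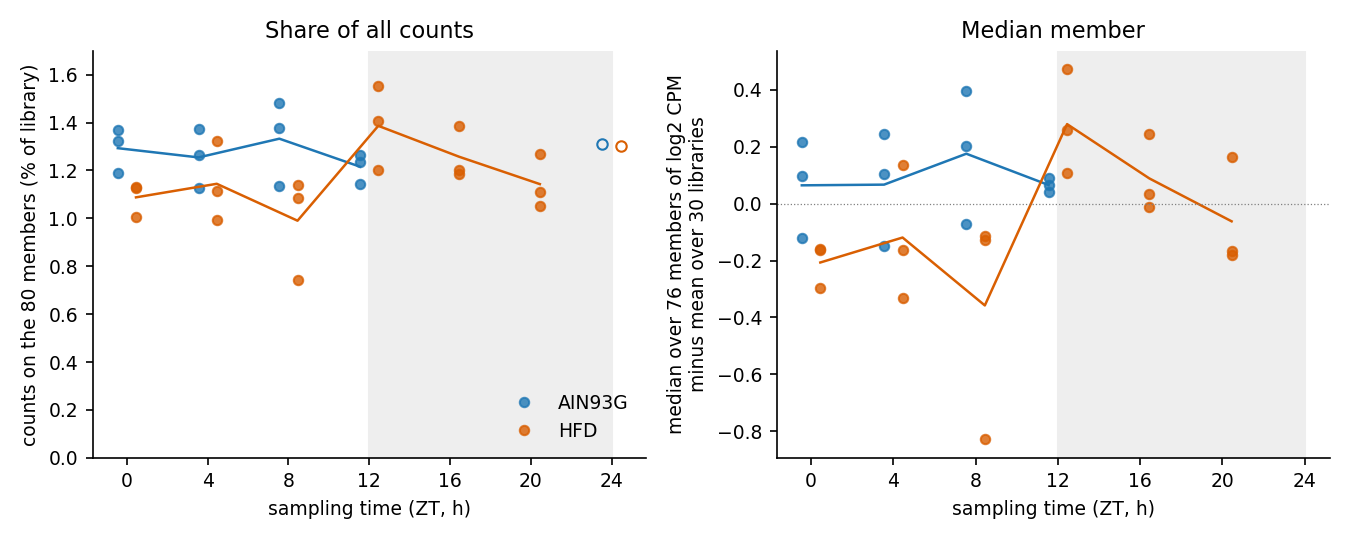
Members in each liver library by sampling time (ZT, h). Left, counts on the 80 members as percent of the library. Right, median over the 76 tested members of log2 CPM minus each gene's mean over 30 libraries. Blue is AIN93G and orange HFD, points are libraries shifted sideways by diet, lines join group means, open circles are the single ZT 24 libraries and grey marks the dark phase. On the HFD the means are lowest at ZT 8, where 1 library lies at 0.745%, and highest at ZT 12.

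At ZT 0 each of the 76 tested members had a log2 fold change under 0 on the HFD against AIN93G, with a median of -0.29, while over all 12000 genes 50% were under 0. None of the members passed an adjusted p of 0.05 in edgeR's quasi-likelihood test, as none of the 12000 genes did (0%), and DESeq2 and limma-voom also called 0 members. Below an unadjusted p of 0.05 there were 2 members, both lower on the HFD, against 4.05% of all genes in either direction and 1.62% in that one, and DESeq2 and limma-voom had 4 and 3. Here and below, shares of all genes under the unadjusted threshold come from edgeR. None is given for DESeq2 or limma-voom, so the unadjusted counts of these tools have no background beside them. The 2 in edgeR were Rpl5, which binds the 5S ribosomal RNA (log2 fold change -0.33, SE 0.14, edgeR adjusted p = 0.999), and Rps4x, a small subunit protein (-0.30, SE 0.15, adjusted p = 0.999). A fit of these 2 groups alone had 26 members below the unadjusted threshold, against 8.04% of genes, and leaving out 1 library gave 0 (without HFD ZT 0 replicate 2, 2.85% of genes) to 11 (without AIN93G ZT 0 replicate 2, 3.83%). Rpl5 was at 209, 194 and 231 CPM on AIN93G and at 158, 166 and 179 CPM on the HFD. All 3 HFD values lay below the AIN93G values, as they did for 30 of the 76 members, against 6.52% of all genes.

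At ZT 4 all 76 members again had a log2 fold change under 0, with a median of -0.17, against 52% of all genes. Of the members, 0 were called by edgeR, DESeq2 and limma-voom, as were 0% of all genes in edgeR, and 0 were below an unadjusted p of 0.05 in each tool, against 2.49% of all genes, with at most 3 when 1 library was left out (without HFD ZT 4 replicate 2, 2.93% of genes). The diets did not overlap for 1 member, against 3.7% of genes. The 3 members with the smallest p were Rps2, Rpl37a and Rps7, at log2 fold changes of -0.25 (SE 0.15), -0.41 (SE 0.27) and -0.19 (SE 0.13). Without HFD replicate 1 of ZT 4 the median was -0.06, with 61 members under 0, and without HFD replicate 2 it was -0.30.

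The lower values on the HFD were widest at ZT 8, where 75 of 76 members had a log2 fold change under 0, against 50.5% of all genes. Their median was -0.52, and the only member above 0 was the thinly counted Rps10 (0.23, SE 0.53). Of the members, 54 were below an unadjusted p of 0.05, all lower on the HFD, against 6.74% of all genes in that direction and 11.7% in either. After adjustment over 12000 genes, 0 members were called by edgeR, DESeq2 or limma-voom, and edgeR called 0.0167% of all genes. DESeq2 and limma-voom had 57 and 60 members below the unadjusted threshold, without a share of all genes from these tools beside them. An edgeR fit of these 2 groups alone had 28, against 7.2% of genes. In 25 members all HFD libraries lay below all AIN93G libraries, against 6.5% of all genes.

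The smallest adjusted p at ZT 8 belonged to Rpl7a, a protein of the large subunit (ENSMUSG00000062647, chromosome 2, 26910764 to 26913318 in mm10, plus strand). Its levels were 261, 285 and 309 CPM on AIN93G and 197, 232 and 148 CPM on the HFD, with every HFD library below every AIN93G library. The log2 fold change was -0.57 with an SE of 0.14 and an edgeR adjusted p of 0.216. Rpl10a followed at -0.62 (SE 0.17, adjusted p = 0.236), and Rpl27a, whose tract is shown above, at -0.67 (SE 0.19, adjusted p = 0.236). Rpl27a was at 106, 129 and 152 CPM on AIN93G and at 92.0, 97.2 and 53.7 CPM on the HFD. The largest differences were in very short genes, such as Rpl38 (-1.03, SE 0.39) and Rps29 (-1.02, SE 0.45), whose errors were large as well.

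Every functional group was on the low side at ZT 8. The stalk proteins Rplp0, Rplp1 and Rplp2 had log2 fold changes of -0.48 (SE 0.16), -0.53 (SE 0.22) and -0.76 (SE 0.29), and all 3 were below an unadjusted p of 0.05. Rpl11, which with Rpl5 carries the 5S RNA and can bind the p53 regulator Mdm2, was at -0.59 (SE 0.22), and Rpl5 at -0.28 (SE 0.14). All 8 proteins that line the exit tunnel were under 0, with a median of -0.45, and so were all 5 of the mRNA channel and decoding centre, with a median of -0.54. Rps6, the substrate of S6 kinase, was at -0.29 (SE 0.16), Rpsa at -0.35 (SE 0.17), and Rps27a, made as a fusion with ubiquitin, at -0.50 (SE 0.18). Rps27l, a paralog of Rps27 known as a p53 target, was at -0.10 (SE 0.17). The median was -0.55 over 45 large subunit members and -0.49 over 31 small subunit members, and 5 of the 6 ribosomal proteins outside the name pattern could be tested and had a median of -0.36. None of these members was called.

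One library weighed on ZT 8. In HFD replicate 3 the members held 0.745% of counts, the lowest share of all liver libraries, and all 76 lay below their group mean. Without it, the median log2 fold change at ZT 8 was -0.31, 74 of 76 members were under 0 and 13 were below an unadjusted p of 0.05, against 7.26% of genes. Without AIN93G ZT 8 replicate 3 there were 17, against 10.1% of genes. In the other direction, there were 64 without AIN93G ZT 8 replicate 1, with no share of all genes given here. Without HFD ZT 8 replicate 2 the median was -0.65 and 2 members were called, among 37 genes called. With all libraries in, the median member stood at -0.13 and -0.12 in the other 2 HFD libraries, and at -0.07, 0.20 and 0.39 in the AIN93G libraries, so the diets did not overlap without HFD replicate 3 either.

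At ZT 12 the sign was the opposite, and all 76 members had a log2 fold change above 0 on the HFD, with a median of 0.20, against 49.7% of all genes. Of these, 0 were called by edgeR, DESeq2 or limma-voom, as were 0% of all genes in edgeR. In each tool 1 member was below an unadjusted p of 0.05, against 7.47% of all genes, or 2.65% that were higher. That member was Rpl19, a protein of the exit tunnel, at 182, 159 and 166 CPM on AIN93G and 246, 177 and 215 CPM on the HFD (log2 fold change 0.33, SE 0.14, edgeR adjusted p = 0.638). The ranges of Rpl19 overlapped, since HFD replicate 2 lay below AIN93G replicate 1. For 18 members the diets did not overlap, with the HFD higher, against 5.05% of all genes. Rpl10a, Rpl27a and Rpl7a were the 3 members with HFD values below all AIN93G values at ZT 0 and ZT 8 and above all of them at ZT 12, a pattern picked after the values were seen that 0.0917% of all genes had. Without HFD replicate 1 of ZT 12 the median was 0.12, and leaving out 1 library gave 0 to 4 members below the unadjusted threshold (4 without HFD ZT 12 replicate 2, 10.5% of genes). Of the 76, 14 were below at both ZT 0 and ZT 8, against 0.933% of all genes.

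**Figure D2:**
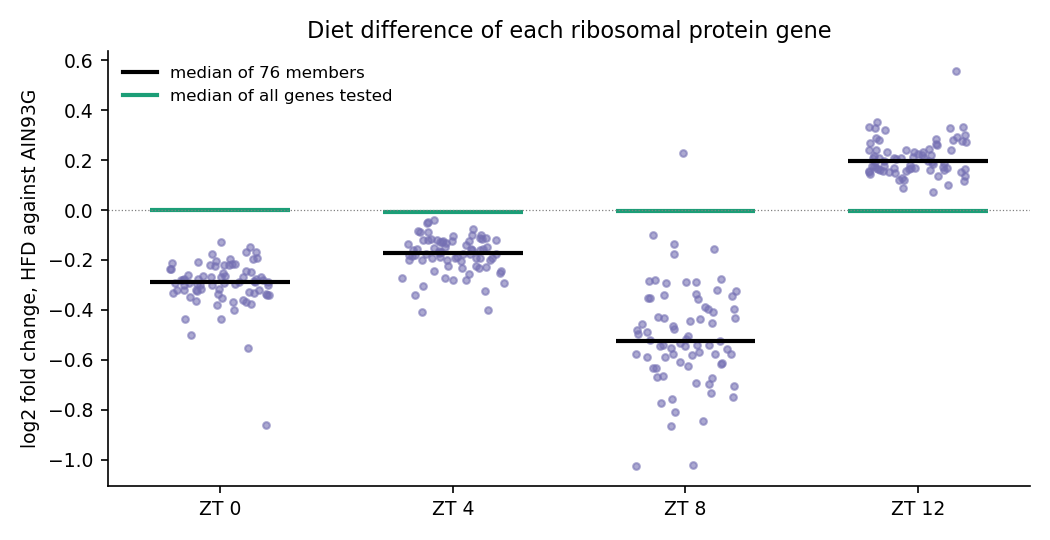
Log2 fold change of each of the 76 tested members, HFD against AIN93G, at ZT 0, 4, 8 and 12. Points are members, shifted sideways at random, black lines their median and green lines the median of all 12000 genes. The members lie below 0 at ZT 0, 4 and 8 (medians -0.29, -0.17 and -0.52), except Rps10 at ZT 8, and above 0 at ZT 12 (median 0.20).

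Averaged over ZT 0 to ZT 12, all 76 members had a log2 fold change under 0, with a median of -0.19, against 52.8% of all genes. Of the members, 0 were called by edgeR, DESeq2 and limma-voom, while edgeR called 0.108% of all genes. Below an unadjusted p of 0.05 were 22 members, all lower, against 8.39% of genes in either direction and 4.4% lower, and 25 and 31 by DESeq2 and limma-voom. Rpl7a had the smallest p (-0.22, SE 0.07, edgeR adjusted p = 0.298), and Rps3, at the mRNA entry, was at -0.20 (SE 0.07). With 1 library left out, the edgeR count of 22 ran from 5 (without AIN93G ZT 8 replicate 3, 9.09% of genes) to 45 (without AIN93G ZT 4 replicate 2 or HFD ZT 4 replicate 2, 8.36% and 8.04%). It was 12 without the light-labelled ZT 12 libraries (7.73% of genes) and 66 without ZT 12, where the median was -0.31 and 13% of genes were below the threshold. Members called were 0 in each, while genes called rose from 13 to 64 without ZT 12.

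Whether the diet difference varied with time was tested as an interaction over ZT 0, 4, 8 and 12. Of the members, 0 were called by edgeR, DESeq2 and limma-voom, as were 0% of all genes in edgeR. In edgeR 16 members were below an unadjusted p of 0.05, against 6.02% of all genes, with 19 in DESeq2 and 17 in limma-voom. The smallest values were those of Rpl10a, Rpl19 and Rpl7a, each with an edgeR adjusted p of 0.795. Below the unadjusted threshold were 0 members without ZT 12 (3.43% of genes) and 5 without its light-labelled libraries (6.49%). With 1 library left out there were 3 (without HFD ZT 12 replicate 1, 3.66% of genes) to 33 (without HFD ZT 8 replicate 1 or 2, 6.19% and 9.92%).

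Across the day on AIN93G, the F-test over ZT 0 to ZT 12 called 0 members and gave 0 below an unadjusted p of 0.05 in edgeR, DESeq2 and limma-voom, whereas edgeR called 0.758% of all genes and placed 10.7% below the unadjusted threshold. At ZT 8 against ZT 0, 69 of 76 members had a log2 fold change above 0, with a median of 0.13, against 52% of all genes. The median was 0.02 without AIN93G ZT 8 replicate 3 and 0.24 without AIN93G ZT 8 replicate 1. None of the members was called or fell below an unadjusted p of 0.05 in any of the 3 tools, against 1.61% of genes called and 15.3% below the unadjusted threshold in edgeR. Rpl17, Rpl26 and Rpl22 came first at 0.21 to 0.22 (SE 0.16 to 0.18), and 3 members did not overlap between the times, against 11.8% of genes.

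On the HFD, the F-test over ZT 0 to ZT 20 called 1 member, Rpl7a, with an edgeR adjusted p of 0.0397, against 5.28% of all genes. Rpl7a was at 230 CPM ± 13.2 (SD, n = 3) in the ZT 0 group, 245 ± 30.2 (ZT 4), 192 ± 42.2 (ZT 8), 309 ± 34.0 (ZT 12), 282 ± 29.4 (ZT 16) and 250 ± 35.2 (ZT 20). At ZT 12 its 3 libraries had 346, 280 and 300 CPM, above all 3 of ZT 0, at 222, 223 and 245 CPM, and of ZT 8. From the highest, its group means followed the order ZT 12, 16, 20, 4, 0 and 8, and the libraries of each pair of neighbours in that order overlapped. The call was lost under 15 of 40 alternatives, with adjusted p between 0.00296 and 0.140. It was lost without HFD ZT 8 replicate 3 (adjusted p = 0.102), without HFD ZT 8 replicate 1 (0.0855), without HFD ZT 12 replicate 1 (0.118), and without ZT 12 altogether (0.140). In all, 35 members were below an unadjusted p of 0.05, against 25.2% of all genes. That count was 1 without ZT 12 (24.8% of genes) and 22 without the light-labelled ZT 12 libraries (27.5%). With 1 library left out it ran from 4 (without HFD ZT 12 replicate 1, 20.5% of genes) to 44 (without HFD ZT 8 replicate 1, 23%). DESeq2 called 13 members, against 14.9% of genes, and limma-voom 1, against 5.52%.

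Pairs of times on the HFD were compared as well. At ZT 8 against ZT 0 the median was -0.09 and 55 of 76 were under 0, against 50.5% of genes, but without HFD ZT 8 replicate 3 the median turned to 0.10 with 13 under 0, and without HFD ZT 8 replicate 2 it was -0.24. At ZT 16 against ZT 4 it was 0.19, with 72 above 0, against 52.2% of genes, and it was 0.08 without HFD ZT 4 replicate 1 and 0.34 without HFD ZT 4 replicate 2. At ZT 20 against ZT 8 it was 0.27, with 72 above 0, against 49.7% of genes, and it was 0.07 without HFD ZT 8 replicate 3 and 0.44 without HFD ZT 8 replicate 2. In these 3 comparisons 0 members were called by edgeR, DESeq2 or limma-voom, against 1.91%, 1.59% and 2.42% of genes called in edgeR. Below an unadjusted p of 0.05 were 0, 0 and 5 members in edgeR, all 5 higher at ZT 20, against 18%, 15.8% and 17% of genes in either direction and 8.68% higher at ZT 20, with 0, 0 and 4 in DESeq2 and 1, 0 and 8 in limma-voom. With 1 library left out, the 5 at ZT 20 against ZT 8 became 0 (without HFD ZT 8 replicate 3, 14% of genes) to 30 (without HFD ZT 8 replicate 2, 19.1%). The other comparisons then had at most 10 members at ZT 8 against ZT 0 (without HFD ZT 8 replicate 2, 22.6% of genes) and 7 at ZT 16 against ZT 4 (without HFD ZT 4 replicate 2, 13%). Times did not overlap for 1, 3 and 2 members, against 11.1%, 9.96% and 10.1% of genes. The first of the 5 were Rpl7a (0.38, SE 0.14), Rps3 (0.33, SE 0.15) and Rpl27a (0.41, SE 0.19).

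A 24 h cosine was fitted to the 18 HFD libraries of ZT 0 to ZT 20, the AIN93G liver libraries covering only part of a cycle. Of the members, 0 were called by edgeR, against 8.52% of all genes, while 19 were below an unadjusted p of 0.05, against 26.6% of genes. DESeq2 called 3, against 13.9% of genes (Rpl17, Rpl5 and Rps27l, with 22 below the unadjusted threshold), and limma-voom 0 (17). The fitted peaks of all 76 members lay between ZT 9.83 and ZT 16.3, with a median of ZT 14.5, and 74 lay between ZT 12 and ZT 16. The amplitude, the distance from the fitted mean to the peak on the log2 scale, had a median of 0.20 and ran from 0.07 to 0.37. Rpl17 had the smallest p (amplitude 0.26, peak ZT 12.5, edgeR adjusted p = 0.0692), then Rps27l (0.25, ZT 14.3, adjusted p = 0.0789) and Rpl5 (amplitude 0.21, adjusted p = 0.0802). Without HFD ZT 8 replicate 3, 10 members were called, among them Rpl17 and Rps27l, against 9.35% of genes. Below the unadjusted threshold were 0 members without ZT 12 (24% of genes), 6 with the ZT 24 HFD liver library added (20.5%) and 7 with scaling by library size alone (26.7%). With 1 library left out there were 7 (without HFD ZT 12 replicate 1, 23.1% of genes) to 51 (without HFD ZT 4 replicate 2, 26.1%).

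**Figure D3:**
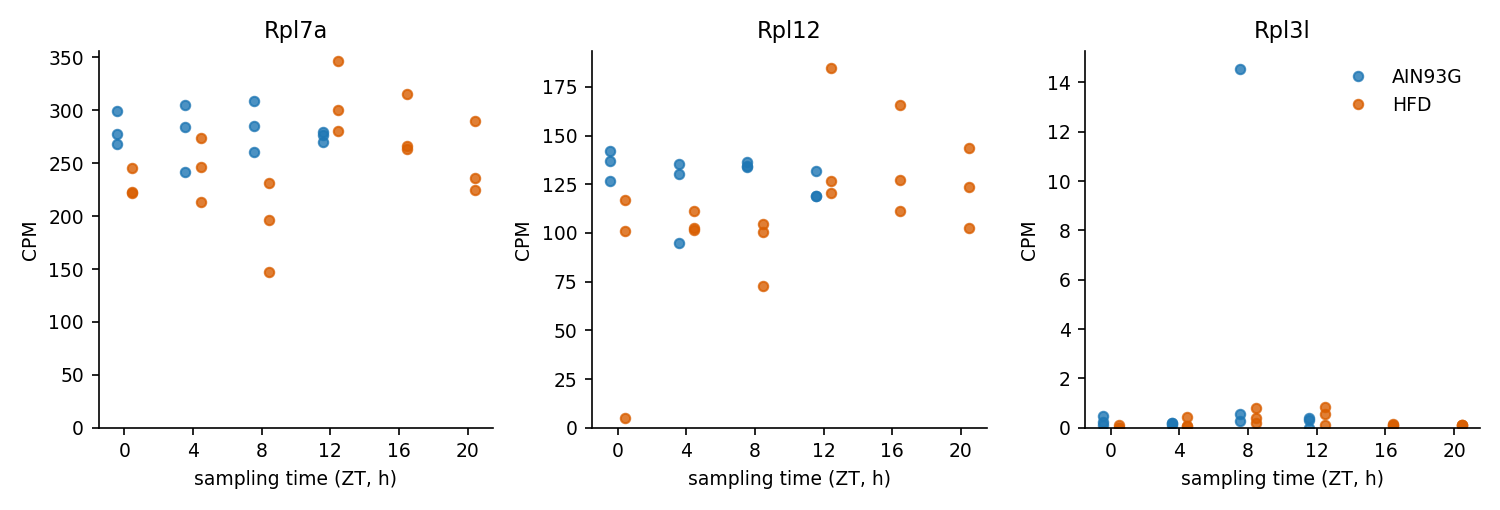
Level in CPM of 3 members in the 30 fitted liver libraries by sampling time (ZT, h), with AIN93G in blue and HFD in orange, 1 point per library, shifted sideways by diet. Rpl7a on the HFD runs from 148 CPM at ZT 8 to 346 CPM at ZT 12. Rpl12 is at 5.12 CPM in 1 HFD library of ZT 0, and Rpl3l stands out in 1 AIN93G library of ZT 8 at 14.6 CPM.

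Members deviated together between libraries of 1 group. The within-group standard deviation (SD) of log2 CPM, pooled over 10 groups with 20 residual degrees of freedom, had a median of 0.25 over the members, against 0.26 over all 12000 genes and 0.20 over the 3349 genes of like abundance. The smallest SDs were those of Rpl4 (0.14), Rps7 (0.15) and Rpl5 (0.16), and the largest those of Rpl12 (0.83), Rps10 (0.64) and Rps29 (0.62). Among 2850 pairs of members, deviations from the group means had a median correlation of 0.73 over 30 libraries, and 98.1% of pairs were above 0. These pairs share libraries, scaling and depth, and nuclear genes of oxidative phosphorylation had the same median correlation, 0.73. The first principal component of the deviations held 64.0% of the members' within-group variance. Large and small subunit members deviated to the same side in all 30 libraries. Other lists had the members' sign in many libraries as well. These were 26 of 30 for nuclear oxidative phosphorylation genes and 23 for mitochondrial ribosomal protein genes. For translation factors with a pyrimidine tract there were 22, and for ribosome biogenesis genes 16.

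**Figure D4:**
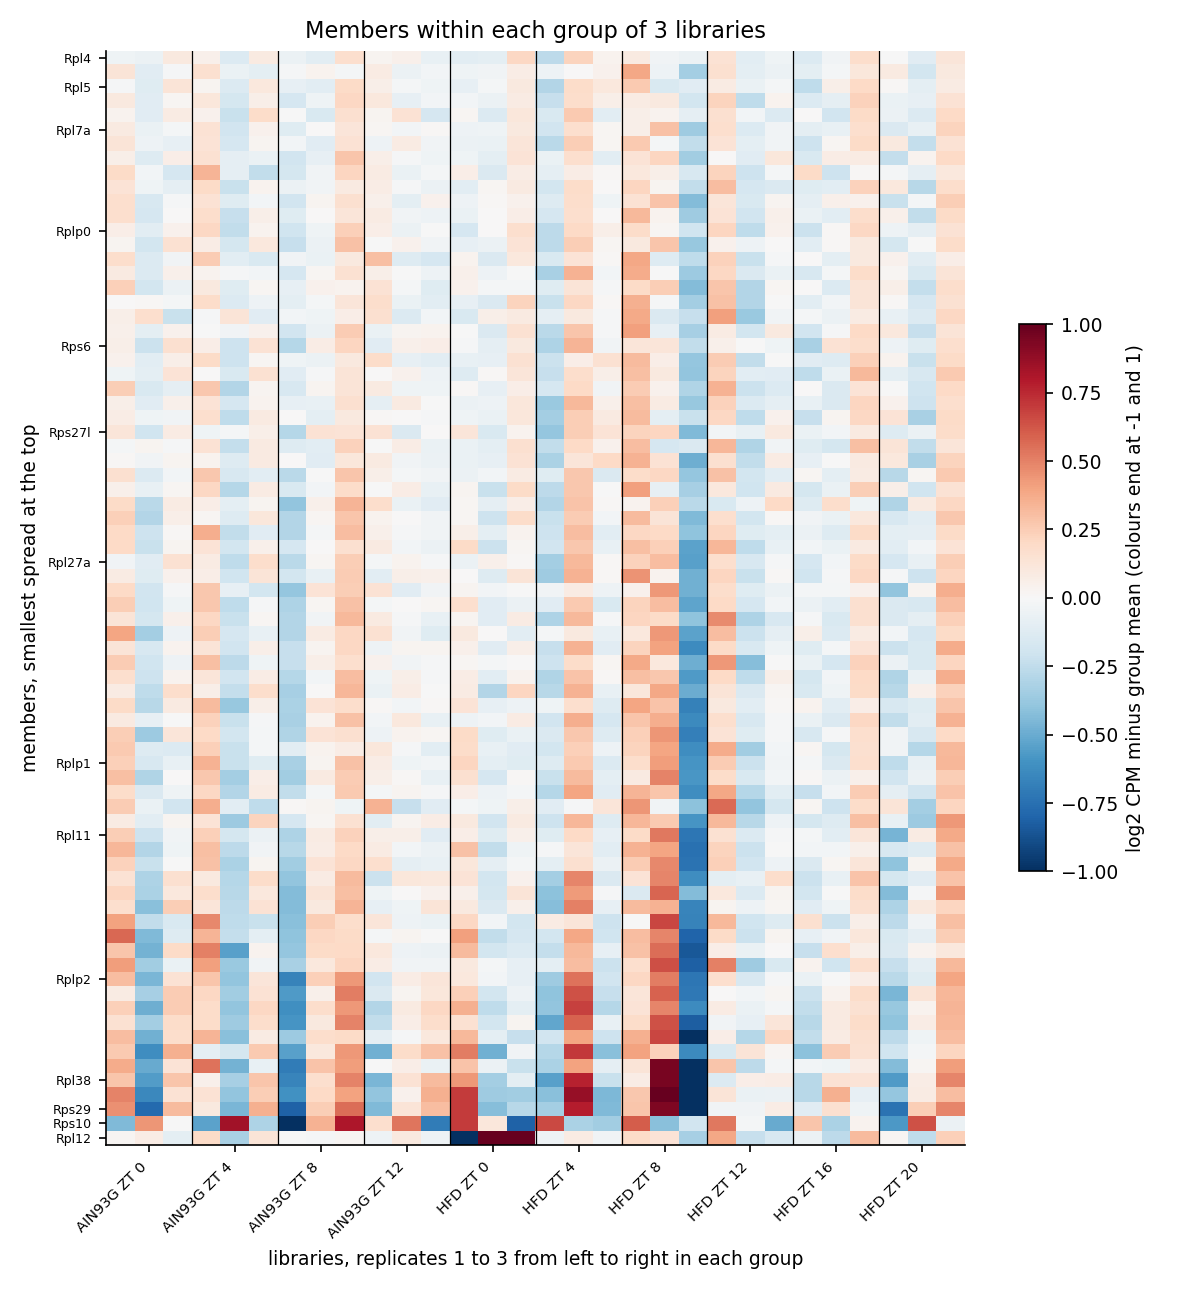
Deviation of each tested member (rows, smallest within-group SD at the top, some labelled) from its group mean in log2 CPM, in the 30 liver libraries (columns, replicates 1 to 3 of each group). Red is above and blue below the group mean, and colours end at -1 and 1. Whole columns share a colour, such as HFD ZT 8 replicate 3, where all 76 members are below the mean, and the strongest colours are in the rows of largest SD, such as Rps29, Rps10 and Rpl12.

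The spread followed coding length. The median SD was 0.31 in the 25 members with under 400 coding bases, 0.26 in the 28 with 400 to 600, and 0.20 in the 23 with more. Among all other genes with a coding length the medians were 0.30, 0.25 and 0.25. In HFD ZT 8 replicate 3 the members of under 400 bases deviated from the group mean by a median of -0.63 and other genes of that length by -0.35, while over 600 bases the medians were -0.30 for members and 0.03 for other genes. In the same library the nuclear oxidative phosphorylation genes deviated from the group mean by a median of -0.45 and mitochondrial ribosomal protein genes by -0.27, against -0.46 for the members. The part of length in the diet differences was not tested. The same medians were taken within each length. At ZT 8 the diet difference of the members was -0.56, -0.56 and -0.40 from short to long, and that of other genes -0.20, -0.11 and 0.01. At ZT 0 it was -0.32, -0.28 and -0.27 for the members and -0.07, -0.04 and 0.01 for other genes. At ZT 12 members of under 400 bases were at 0.17 and other genes of that length at 0.19, while long members were at 0.18 and other long genes at -0.02.

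**Figure D5:**
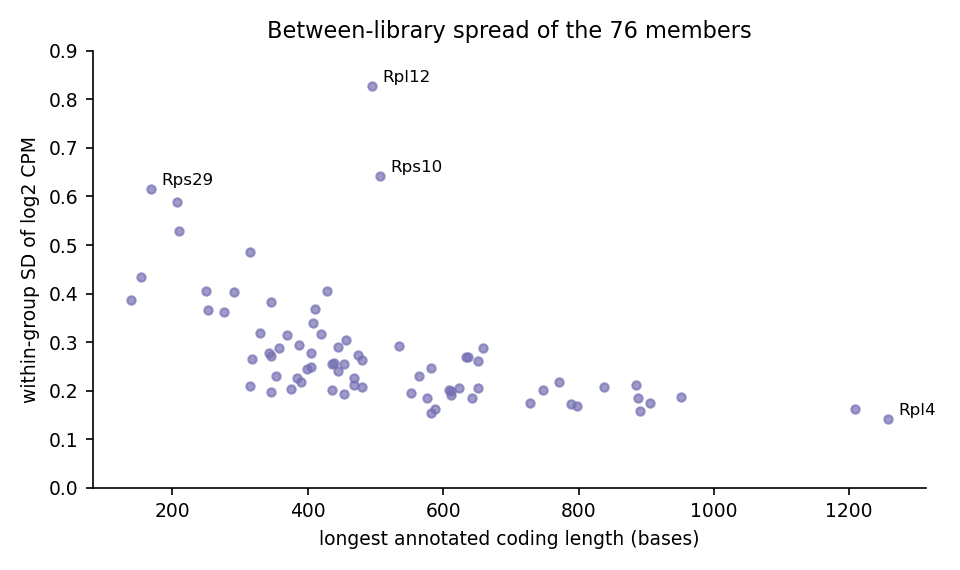
Within-group SD of log2 CPM of the 76 tested members against their longest annotated coding length in bases. Each point is 1 member. The SD is 0.14 for Rpl4, the longest, and 0.62 for Rps29, one of the shortest, while Rpl12 (0.83) and Rps10 (0.64) lie above members of like length.

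In 2 members a single library stood apart. Rpl12, a large subunit protein near the stalk (ENSMUSG00000038900, chromosome 2, 32961559 to 32965345, plus strand), had 83 counts, 5.12 CPM, in HFD ZT 0 replicate 1, whereas the other 29 fitted libraries held 72.8 to 185 CPM. Its neighbours Lrsam1 and Slc2a8 had 17.4 and 11.4 CPM in this library, against 9.84 to 17.2 CPM and 9.19 to 19.3 CPM in the others, and the row of the copy Rpl12-ps1 had 1 count. The diet difference of Rpl12 at ZT 0 was -0.86 (SE 0.49) with this library and -0.31 (SE 0.20) without it, both with an edgeR adjusted p of 0.999.

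Rpl3l (ENSMUSG00000002500, chromosome 17, 24727820 to 24736143, plus strand) had 247 counts, 14.6 CPM, in AIN93G ZT 8 replicate 2, and at most 14 counts, 0.825 CPM, in the other 29. It was below the filter and untested. In the same library 7 genes of striated muscle (Acta1, Ckm, Myh1, Myh4, Mylpf, Pvalb and Tnnt3), a list chosen after its values were seen, summed to 1775 CPM. The next highest liver library, HFD ZT 8 replicate 3, had 139 CPM and the median was 9.09 CPM. The ubiquitous paralog Rpl3 was at 283 CPM there, against 314 and 353 CPM in the other AIN93G libraries of ZT 8. Without AIN93G ZT 8 replicate 2 no diet comparison called a member either.

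Other gene groups of protein synthesis were set beside the members. At ZT 8 the diet difference was under 0 for 29 of 30 ribosome biogenesis genes, with a median of -0.45 and 16 below an unadjusted p of 0.05 (11.7% of all genes were), led by Gar1, of the pseudouridylation complex (-1.28, SE 0.35), and Rrn3, a factor of RNA polymerase I (-0.76, SE 0.23). It was under 0 for 69 of 77 mitochondrial ribosomal protein genes (median -0.21, 15 below the unadjusted threshold), 72 of 76 nuclear oxidative phosphorylation genes (median -0.31, 8 below, a share no higher than the 11.7% of all genes in either direction) and 13 of 16 translation factors whose messages carry a pyrimidine tract (median -0.15, 3 below). Of all genes, 6.74% were below that threshold and lower on the HFD. Directions were not counted apart for the genes of these lists below it. At ZT 12 it was above 0 for 28, 72, 73 and 12 genes of these lists, in the same order. In all of these 0 were called. At ZT 0 it was under 0 for all 16 translation factors (median -0.14) and 26 of 30 biogenesis genes (median -0.14), for 61 of 76 oxidative phosphorylation genes (median -0.08) and for 45 of 77 mitochondrial ribosomal protein genes (median -0.02). At ZT 4 it was under 0 for 11, 15, 72 and 38 genes of these lists, in the order just given, with medians of -0.02, 0.01, -0.12 and 0.01. Over time on the HFD, where 5.28% of all genes were called, 3 of 30 biogenesis genes were called (Nob1, Bysl and Ppan, adjusted p = 0.00803, 0.0232 and 0.0468), 2 of 77 mitochondrial ribosomal protein genes (Mrps21 and Mrpl4) and 1 of 76 oxidative phosphorylation genes (Atp5s).

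Markers of liver cell types were checked beside the diet differences. Of 8 hepatocyte markers, 4, 5, 5 and 4 were under 0 on the HFD at ZT 0, 4, 8 and 12 (medians 0.01, -0.15, -0.09 and -0.14), and 3 were below an unadjusted p of 0.05 at ZT 8 and 2 at ZT 12, where 11.7% and 7.47% of all genes were. Of 5 endothelial markers 4, 3, 5 and 2 were under 0 (medians -0.13, -0.07, -0.09 and 0.02), and of 4 stellate cell markers 1, 0, 3 and 0 (medians 0.11, 0.22, -0.17 and 0.23, 1 below the unadjusted threshold at ZT 12). All 5 Kupffer cell markers were above 0 on the HFD at ZT 0 (median 0.80, 3 below an unadjusted p of 0.05, against 4.05% of genes) and at ZT 8 (median 0.27, 1 below), and 3 of 5 at ZT 4 and ZT 12, with summed levels of 270 to 461 CPM on AIN93G and 237 to 804 CPM on the HFD. All 3 erythroid markers were above 0 at ZT 4 and ZT 8 and under 0 at ZT 12, with 1 below the unadjusted threshold at ZT 0 and at ZT 8, and all 3 cycling markers were above 0 at ZT 0 and ZT 8 and under 0 at ZT 4. Of 4 cholangiocyte markers 2 could be tested, with medians of -0.27, -0.99, 0.21 and -0.81 in order of time and 1 below an unadjusted p of 0.05 at ZT 4 and at ZT 12. Of 5 adipocyte markers 2 could be tested, both above 0 at ZT 0 (median 0.27), both under 0 at ZT 4 (-0.83, 1 below the unadjusted threshold), 1 on each side at ZT 8 (-0.18) and both above 0 at ZT 12 (0.41). At an adjusted p of 0.05 edgeR called no hepatocyte, endothelial, stellate, Kupffer, erythroid, cholangiocyte or adipocyte marker in a diet comparison at a single time. The 5 lymphocyte markers summed to at most 5.59 CPM in any liver library. The part of cell makeup in the members' differences was not tested.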

How the data were processed

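Poly(A) RNA of 42 libraries was sequenced as paired-end reads. The deposited values are raw gene counts, made by the authors against mm10. The submitters' processing notes list fastp, STAR, HTSeq 0.6.1, DESeq and STAR-Fusion. The strand setting and annotation release are not given in the sources used here. Totals ran from 14592481 to 21368409 counts, and 3 libraries per group limit the precision. As a check for duplicate libraries, replicates were compared in 42 pairs, and none agreed within counting noise (chi-square per degree of freedom 14.5 to 867).

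Libraries with over 10000 CPM of Alb were kept as liver libraries (32 of 42), and groups with 3 of them were fitted (30 libraries). Genes needed a mean count of 25 over the liver libraries. Counts were scaled by TMM (factors 0.899 to 1.08) and tested with the quasi-likelihood test of edgeR 4.0.16 in R 4.3.3, with 1 fit over 10 groups, a prior count of 2 and Benjamini-Hochberg adjustment at 0.05 over 12000 genes. Displayed levels are TMM-scaled CPM, except those of Alb and the summed levels of adipocyte, Kupffer cell and lymphocyte markers, which are per total count without TMM. The scripts were tested on simulated data. Groups were called not overlapping where every library of one lay beyond every library of the other.

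Genes named are members of fixed role lists, the 3 members of smallest p in each direction of each comparison, the 3 highest and lowest in level and in spread, and up to 4 examples of each comparison list. Some genes that this rule names are not reported here. Exceptions chosen after their values were seen are said to be so. Members and lists were chosen with earlier results of these data known. Alternatives were 3 other scalings, 2 other filters, DESeq2 1.42.0, limma-voom (limma 3.58.1), fits of the compared groups alone, fits without ZT 12 or its light-labelled libraries, each library left out in turn and, added after seeing the data, limma-voom with the title number as a block.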

Additional observations from a re-analysis of the deposited data

Results flagged for a closer look

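The median member deviated in opposite directions between diets at different times. At ZT 0 every HFD library lay below every AIN93G library (mean difference -0.271 on the log2 scale), as at ZT 8 (-0.533), whereas at ZT 12 every HFD library lay above (0.214). The difference between times was not tested for the median, and in the per-gene interaction test of edgeR 0 members were called and 16 were below an unadjusted p of 0.05, against 6.02% of all genes. There were 3 without HFD ZT 12 replicate 1 (3.66% of genes) and 33 without HFD ZT 8 replicate 1 or 2 (6.19% and 9.92%).

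The 10 libraries with little Alb were left out of the comparisons, and in 9 of them the members took a larger share of counts than in any liver library, where the highest was 1.55%. The shares were 3.38%, 2.41% and 2.82% in the AIN93G libraries of ZT 16, and 1.76%, 2.27% and 1.86% in those of ZT 20. They were 1.99% in AIN93G ZT 24 replicate 2, and 3.91% and 2.93% in HFD ZT 24 replicates 1 and 2. The liver libraries of ZT 24, at the same time, held 1.31% on AIN93G and 1.30% on the HFD. At ZT 16 and ZT 20 on AIN93G there was no liver library, so the makeup of the sample and the time cannot be told apart there.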

How the results depend on the processing

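Of 353 medians under an alternative, 352 kept their sign. The number of members called was mostly 0, so that its stability says little, and the numbers below an unadjusted p of 0.05 moved more, as the ranges in the report show. The exception among the medians was HFD ZT 8 against ZT 0, at 0.10 without HFD ZT 8 replicate 3. The number of members called over time on the HFD was 0 with scaling by library size alone (566 of all genes called) and 0 without ZT 12 (1041), 13 with DESeq2 (1786) and 14 with no filter on low counts (1738). With no filter, 5 members of 183 genes were called for diet at ZT 8 (Rpl23, Rpl28, Rpl38, Rps29 and Rpl3l), and Rpl3l was the 1 member called over time on AIN93G and the 1 called at ZT 8 against ZT 0 on AIN93G. The cosine called 3 members of 1672 genes with DESeq2. Leaving out 1 library at a time gave 0 to 6 calls over time on the HFD (6 of 744 genes called without HFD ZT 8 replicate 2, or 6.2% of genes), 0 to 10 for the cosine (10 of 1123, 9.35%) and 0 to 2 for diet at ZT 8, the 2 being Rpl7a and Rpl23 without HFD ZT 8 replicate 2 (37 genes called, 0.308%). The median for diet at ZT 8 then ran from -0.65 to -0.31. The causes were not tested.

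Of 1968 single gene values, 14 reversed. With 1 library left out these were Rps10 for diet at ZT 8 (-0.19 and -0.14, highest 0.71), Rps2 (0.027 and 0.0100) and Rps9 (0.058 and 0.12, lowest -0.18) for AIN93G ZT 8 against ZT 0, Rps28 for HFD ZT 16 against ZT 4 (0.56, 0.11 and 0.031, lowest -0.24), and Rpl17 (0.095, lowest -0.26) and Rpl22 (0.036 and 0.048, lowest -0.21) for HFD ZT 20 against ZT 8. Rps28 was also at 0.097 with limma-voom and 0.088 with the block below. The replicate numbers follow accession order and pair no samples. Titles of 13 of the 30 fitted libraries share a first number within a diet, in no case between the diets or within a group. With this number as a replicate block in limma-voom, an alternative chosen after seeing the data, the estimated correlation was 0.017 (0.020 in the cosine fit). The block called 1 member over time on the HFD and 0 in each other comparison, as limma-voom did without it. At ZT 8 both fits had 60 members below an unadjusted p of 0.05. For the diet average the block had 29 and limma-voom without it 31. No shares of all genes are given for these counts.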
